A study of Homo sapiens with 52 samples.

Results

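The genes described here are 9 chemokines that attract neutrophils, monocytes and lymphocytes: CXCL1, CXCL2, CXCL3, CXCL5, CXCL6, CXCL8, CCL2, CCL5 and CCL20. They were chosen by name, and all 9 were found among the 78894 genes of the deposited gene-level values. RNA came from 3 established triple-negative breast cancer cell lines, SUM159PT, MDA-MB-231 and HS578T, which the study uses as models of the claudin-low subtype, in which neuropilin-1 (NRP1, a co-receptor of growth factor receptors) was knocked down. Every line had 6 groups. In siNT, siNRP1#3 and siNRP1#5 the cells were reverse transfected with 20 nM siRNA and harvested after 72 hrs, and in shNT, shNRP1#3 and shNRP1#5 they carried a lentiviral shRNA, were selected with puromycin and were harvested 48 hrs after seeding. NT stands for a non-targeting control. The #3 reagents target transmembrane NRP1 only, with different sequences in the siRNA and the shRNA, whereas siNRP1#5 and shNRP1#5 have 1 sequence that targets transmembrane and soluble NRP1. Groups had 3 samples, except for SUM159PT siNRP1#5 and HS578T shNRP1#3 with 2, which gave 52 samples. The shRNA replicates were consecutive passages of transduced cells, so p-values for them measure the spread between passages. Delivery, selection and harvest time change together between siRNA and shRNA groups and cannot be told apart.

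Chemokines are small secreted proteins that bind G protein-coupled receptors on leukocytes and direct their migration. The CXC members with an ELR motif (CXCL1, CXCL2, CXCL3, CXCL5, CXCL6 and CXCL8) act on CXCR1 and CXCR2 and draw neutrophils. CCL2 draws monocytes through CCR2, CCL5 draws T cells and monocytes, and CCL20 is the ligand of CCR6 on Th17 cells and immature dendritic cells. In tumour cells these genes are typical targets of NF-κB, which acts downstream of IL-1 and TNF. Many of their transcripts carry AU-rich elements that shorten their half-life.

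The ELR genes lie together on chromosome 4 (GRCh38), CCL2 and CCL5 lie on chromosome 17 and CCL20 lies on chromosome 2. The CXCL8 gene spans chr4:73740519-73743716 and CXCL1 spans chr4:73869393-73871308, both on the plus strand, and each of the 6 ELR genes has 4 exons in its leading transcript. Their promoters are shown because CXCL1, CXCL2, CXCL3 and CXCL8 fell together with siNRP1#5 in MDA-MB-231; CXCL5 did not pass there and CXCL6 was not tested. RefSeq promoter windows (GRCh38.p14, reaching from before each start to just after it) were given for 7 of the members, and on both strands they were searched for the κB core GGAATTTCC, the wider κB pattern GGGNNNNNCC, which overlaps it, and the AP-1 pattern TGANTCA. The core was found in 6 of the 7 promoters, 77 to 91 bases before the RefSeq start, and in 0.461% of all 35116 promoters. The windows below show 30 bases of each, 5′ to 3′ in the direction of transcription, with the core in capitals.
CXCL1 (chr4:73869305-73869334, plus strand): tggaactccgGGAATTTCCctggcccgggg
CXCL2 (chr4:74099253-74099282, minus strand): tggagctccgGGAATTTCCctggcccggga
CXCL3 (chr4:74038748-74038777, minus strand): tggagctccgGGAATTTCCctggcccggcc
CXCL5 (chr4:73998748-73998777, minus strand): atgagttcagGGAATTTCCccagcatccca
CXCL6 (chr4:73836579-73836608, plus strand): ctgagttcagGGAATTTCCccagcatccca
CXCL8 (chr4:73740468-73740497, plus strand): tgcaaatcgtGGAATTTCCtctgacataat

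The AP-1 pattern was found in CXCL8 only among these 7, 137 bases before its RefSeq start, and in 7.71% of all promoters. That RefSeq start lies inside the gene span given above, downstream of the start in the GENCODE annotation. The 100 bases before the GENCODE start of CXCL8 (chr4:73740419-73740518, plus strand) hold the core, and the AP-1 pattern at their beginning, both in capitals: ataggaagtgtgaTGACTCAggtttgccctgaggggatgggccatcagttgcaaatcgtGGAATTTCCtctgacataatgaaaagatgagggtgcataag. The wider pattern was found in all 7 promoters, CCL20 included, and in 58.7% of all promoters. A match describes these letters and no binding was measured. The pentamer ATTTA, the unit of AU-rich elements, occurred 8.97 times per kb in the leading CXCL2 transcript, 6.51 times in CXCL3, 6.09 in CXCL8, 5.11 in CXCL1 and 4.80 in CCL20. It occurred 1.35 times per kb in CCL2 and not at all in CCL5, with a median of 0.977 per kb over the longest coding transcripts of 19676 genes. CXCL1, CXCL2 and CXCL3 are close paralogues: the leading CXCL1 and CXCL2 transcripts shared 90.9% of aligned bases, CXCL2 and CXCL3 83.6% and CXCL1 and CXCL3 81.7%. RSEM divides reads that match more than 1 gene, and values of CXCL2 and CXCL3 were not whole in 5 samples each, so small opposite differences between these 3 genes are uncertain.

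CXCL8 was the most abundant member and was detected in every sample, with 213 to 43293 expected counts and 3.66 to 641 TPM. CXCL6 was at 0 in 49 of 52 samples and never exceeded 1 count, so it was not detectable at this depth in 49 samples and was not tested. CXCL5 reached at most 33 counts and was at 0 in 30 samples. It passed the filter on low counts in MDA-MB-231 only among the fits per line, where it was tested. CCL20 passed in SUM159PT and MDA-MB-231. The other 6 members passed in all lines. The fits per line thus tested 7 members for SUM159PT, 8 for MDA-MB-231 and 6 for HS578T.

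The samples held 25310443 to 72003442 expected counts over all genes. NRP1 fell in 11 of the 12 knockdown comparisons. Its log2 fold change was smallest in size among those that passed with siNRP1#3 in MDA-MB-231 (-0.70, adjusted p = 0.00173) and missed the threshold with shNRP1#3 in HS578T (-1.59, adjusted p = 0.0690). The MDA-MB-231 siNRP1#3 samples had 39.97 to 47.3 TMM-scaled CPM of NRP1 against 63.0 to 85.8 in siNT, but their TPM overlapped (24.8 to 31.3 against 25.6 to 31.6 TPM). Among the leukocyte markers CD3E, CSF3R and LYZ never exceeded 38 counts, whereas PTPRC reached 13.1 TPM in SUM159PT and CSF1R 27.2 TPM in HS578T. The claudins CLDN3, CLDN4 and CLDN7, which claudin-low cells are expected to lack, had medians of 6.86, 149 and 35.4 TPM in MDA-MB-231, while those in the other lines did not exceed 1.02 TPM. VIM, which such cells express, had 1311 to 6093 TPM over all samples. CDH1, the other gene expected to be low, had a median of 0.405 TPM or less in every line. RNA of another line was estimated from genes that the labelled line lacks, as the median of their level in percent of the level in the other line. By 83 such genes the HS578T siNRP1#5 libraries carried 8.65 to 17.1% of MDA-MB-231 RNA and the HS578T siNRP1#3 libraries 2.11 to 5.32%, against 0.551 to 1.41% in HS578T siNT. For SUM159PT RNA the estimate was 1.74 to 8.15% in the HS578T siNRP1#5 libraries and 0.722 to 1.35% in the siNRP1#3 libraries. The genes used for 1 other line were not required to be low in the third line. The shares of 2 other lines in a library can thus count the same RNA. In 1 MDA-MB-231 shNRP1#3 library the shares reached 3.21% for HS578T and 2.77% for SUM159PT. For HS578T siNRP1#3 and siNRP1#5, values after subtraction of MDA-MB-231 reads are given beside the results of CXCL1 and CXCL2. Reads were subtracted only in groups with a median share of at least 1%. The HS578T siNT samples were thus left as measured, with their smaller share.

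Group levels of most members spanned a wide range across cell lines and kinds of RNA interference. CXCL8 had its highest group mean in SUM159PT siNRP1#3 with 479 ± 94.0 TPM (SD, n = 3) and its lowest in MDA-MB-231 shNRP1#5 with 8.72 TPM. CXCL1 was highest in MDA-MB-231 siNRP1#3 with 108 ± 20.1 TPM (SD, n = 3) and was at 0 in all 3 HS578T shNT samples. CXCL2 was highest in SUM159PT siNT with 99.97 ± 78.8 TPM (SD, n = 3) and CXCL3 in MDA-MB-231 siNRP1#3 with 29.9 ± 10.9 TPM (SD, n = 3). CCL5 was highest in SUM159PT siNT with 101 ± 72.1 TPM (SD, n = 3) and lowest in HS578T siNT with 0.153 TPM. CCL2 was highest in MDA-MB-231 siNT with 10.1 ± 2.14 TPM (SD, n = 3) and lowest in SUM159PT siNRP1#3 with 0.25 TPM. CCL20 was highest in SUM159PT siNT with 5.68 ± 5.03 TPM (SD, n = 3). When the 18 groups were ordered by mean, most neighbours overlapped: the ranges of 15 of 17 neighbouring pairs overlapped for CXCL8, CCL5 and CXCL3, 14 for CXCL1, 16 for CCL2 and CCL20 and 17 for CXCL2.

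**Figure D1:**
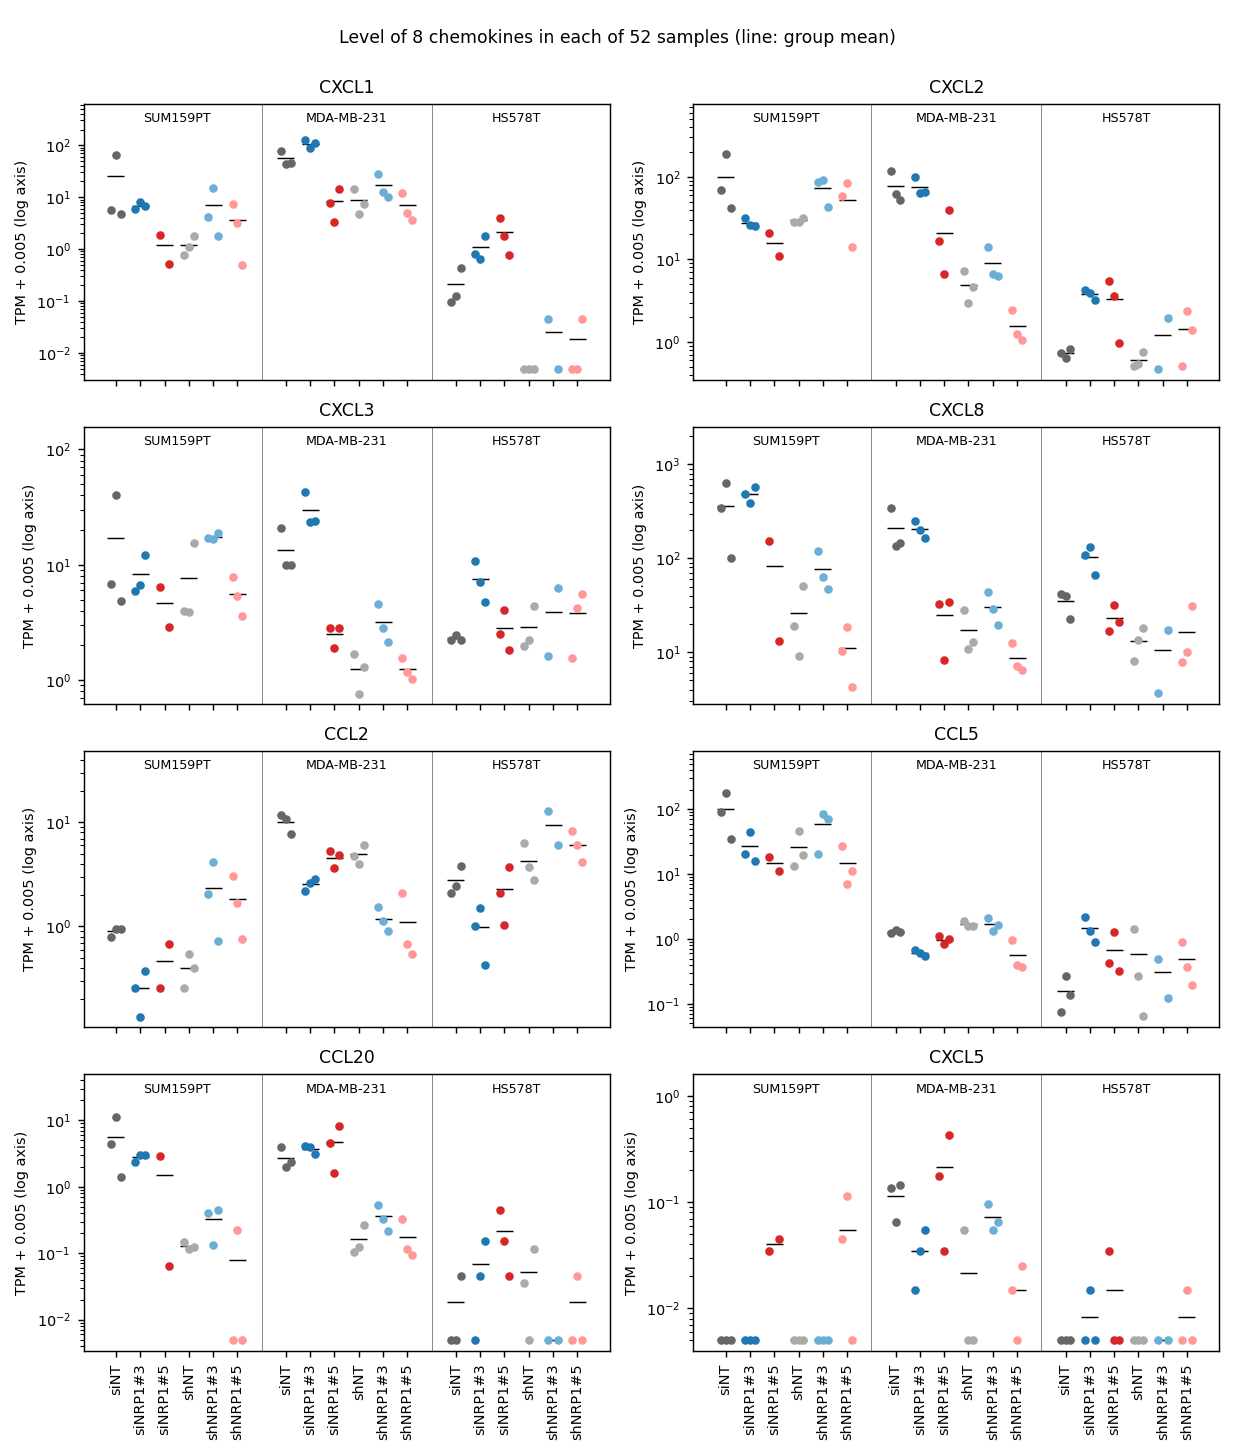
TPM of 8 chemokines in each of the 52 samples, with 0.005 added so that values of 0 can be drawn on the log axis. Points are samples, black lines are group means, and vertical lines part the 3 cell lines. The shNT samples sit below the siNT samples for CXCL8 in all 3 lines, and CXCL1 was at 0 in all HS578T shNT samples.

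Between the cell lines, CCL5 set SUM159PT apart. With the means of siNT and shNT, CCL5 was higher in SUM159PT than in MDA-MB-231 by a log2 fold change of 5.58 ± 0.57 (SE, edgeR adjusted p = 7.09e-11), and CCL2 was lower by -3.08 ± 0.40 (adjusted p = 1.57e-08). In the single samples CCL5 had 89.8, 178 and 35.1 TPM in SUM159PT siNT, 1.24, 1.35 and 1.29 TPM in MDA-MB-231 siNT and 0.07, 0.26 and 0.13 TPM in HS578T siNT, with no overlap between lines. HS578T had the lowest levels of CXCL1 and CXCL2: CXCL1 had 0.09 to 0.42 TPM in siNT and was at 0 in shNT, and CXCL2 was lower than in SUM159PT with a log2 difference of -5.94 ± 0.54 (SE, adjusted p = 3.84e-12). Between HS578T and MDA-MB-231 the log2 difference was 0.03 ± 0.39 for CXCL3 (SE, adjusted p = 0.965) and -0.75 ± 0.50 for CXCL8 (SE, adjusted p = 0.174), and neither passed. Of the 8 members tested, 6 passed between SUM159PT and MDA-MB-231, 5 between HS578T and MDA-MB-231 and 7 between HS578T and SUM159PT, where 59.4%, 70.2% and 63.5% of all genes passed. CXCL5 is among the first 2 counts, as it was at 0 in the controls of SUM159PT and HS578T and at 5 to 12 counts in MDA-MB-231 siNT.

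Neither of the 2 controls targets NRP1, but NRP1 itself was higher in shNT than in siNT in MDA-MB-231, with 84.99 against 28.8 TPM on average (log2 fold change 1.23 ± 0.15, SE, adjusted p = 1.68e-05). It did not pass in SUM159PT (0.15) or HS578T (0.31). Where chemokines passed between the controls they were lower in shNT: 14 of 21 gene tests passed, all lower, where 17.6% of the tests on all genes passed over the 3 lines. In MDA-MB-231, 7 of 8 members were lower, with 20.6% of all genes passing in either direction. CXCL8 had 347, 135 and 146 TPM in siNT and 28.4, 10.8 and 12.8 TPM in shNT, without overlap, a log2 fold change of -3.76 ± 0.59 (SE, adjusted p = 0.000721). CCL20 had 3.96, 1.95 and 2.35 TPM against 0.10, 0.12 and 0.26 TPM, which came to -4.34 ± 0.58 (SE, adjusted p = 5.73e-05) and rested on 2 to 7 counts in the shNT samples. CXCL2 changed by -4.11 ± 0.63, CXCL3 by -3.56 ± 0.39, CXCL1 by -2.84 ± 0.59 and CCL2 by -1.22 ± 0.31 (log2, SE). CCL5 was the exception among the members of this line, with 0.29 ± 0.29 (SE, adjusted p = 0.504).

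In SUM159PT 5 of 7 members were lower in shNT than in siNT, where 14.4% of all genes passed. CXCL8 had 345, 641 and 102 TPM in siNT and 18.9, 9.03 and 50.6 TPM in shNT, a log2 fold change of -4.06 ± 0.95 (SE, adjusted p = 0.0145). CXCL1, CCL5 and CXCL2 changed by -4.73 ± 1.19, -2.32 ± 0.74 and -2.08 ± 0.63 (log2, SE). CCL20 had 117, 331 and 32 counts in siNT and 3 in each shNT sample, and was lower (adjusted p = 0.00899), with a fold that is uncertain at so few counts. In SUM159PT siNT, replicate 2 stood above the others for CXCL1 (64.9 against 5.76 and 4.64 TPM), CXCL2 (190 against 68.6 and 41.7 TPM) and CXCL3 (40.1 against 6.78 and 4.81 TPM), and also for CXCL8, CCL5 and CCL20, while CCL2 was the same as in replicate 3 at 0.95 TPM. Without this library 2 of the 7 members passed, CXCL8 and CCL20, while CXCL1, CCL5 and CXCL2 changed by -2.16, -1.44 and -1.03 (adjusted p = 0.127, 0.213 and 0.231). Each of the 5 calls was also lost without at least 1 other library: CXCL1 without any 1 shNT library (adjusted p = 0.0541 to 0.0744), CXCL2 without any 1 shNT library or siNT replicate 1 (0.0549 to 0.117), CCL5 without shNT replicate 1 or 3 or siNT replicate 1 (0.0840 to 0.169), CXCL8 without shNT replicate 1 (0.0601) and CCL20 without shNT replicate 3 (0.0571). In HS578T 2 of 6 members passed, CXCL1 and CXCL8, both lower, with 17.9% of all genes passing. CCL5, CCL2 and CXCL3 had log2 fold changes above 0 there (1.90, 0.59 and 0.16) and CXCL2 below 0 (-0.30), and none of these passed. CXCL8 had 42.0, 39.7 and 22.7 TPM in siNT and 8.01, 13.4 and 17.99 TPM in shNT (-1.44 ± 0.47, SE, adjusted p = 0.0432), and leaving out any library other than siNT replicate 3 lost this call (adjusted p = 0.0682 to 0.132). CXCL1 had 22 counts over the 3 siNT libraries and 0 over the 3 shNT libraries, which with a limit of 3 counts over the group is at least 8.32-fold lower in shNT (adjusted p = 0.0177). Of these counts 16 were in siNT replicate 3, and without it the bound was 3.58-fold. The call was lost without that library (adjusted p = 0.0620) or without shNT replicate 3 (0.0566). In siNT replicate 3 CXCL1 measured 0.384 CPM, while its 1.41% of MDA-MB-231 RNA would carry 0.562 CPM at the level of MDA-MB-231 siNT. The part of that RNA in the result was not tested. Leukocyte markers summed to 7.03 to 10.2 TPM in HS578T siNT and 17.99 to 28.3 TPM in shNT. In this line the sum was mostly CSF1R, with a median of 13.2 TPM over its samples, and no other marker on the list exceeded 2.03 TPM. The part of these markers in the result was not tested.

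**Figure D2:**
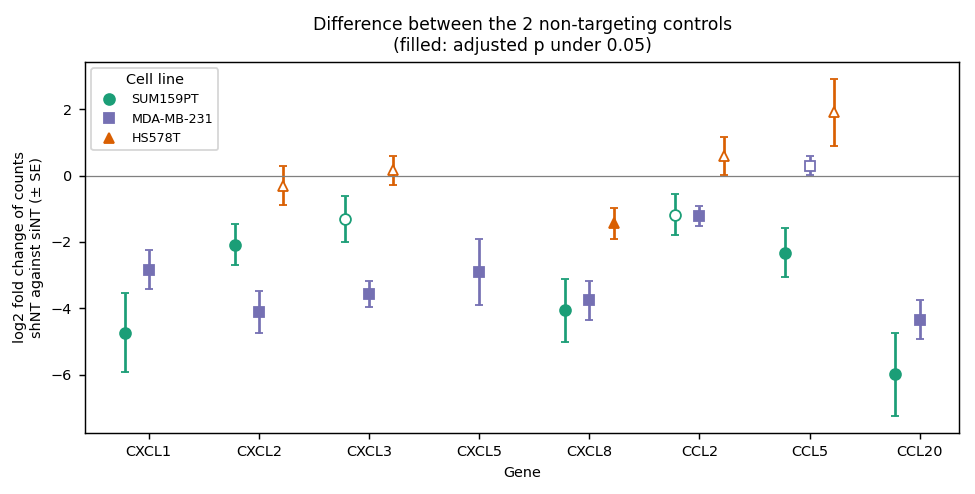
Log2 fold change of counts in shNT against siNT (y axis) for each chemokine tested (x axis) in the 3 cell lines, with standard errors and filled symbols where adjusted p was under 0.05. All filled symbols lie below 0, and CCL5 in MDA-MB-231 lies at 0.29. CXCL1 in HS578T is not drawn because the shNT samples were at 0.

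In the 12 comparisons of an NRP1 knockdown with its control, 17 of 84 gene tests on the members passed, 13 lower and 4 higher, and of these 11 were in MDA-MB-231. That is 20.2% of the tests, where 11.3% of the tests on all genes passed over the same 12 comparisons. The 2 siRNA comparisons of a line share the siNT samples and the 2 shRNA comparisons share the shNT samples. Without the filter on low counts 47 of 108 tests passed, 25 lower and 22 higher, so the number passing depended on this choice. In bulk RNA a change of the cells that make a chemokine and a change of RNA per cell cannot be told apart.

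**Figure D3:**
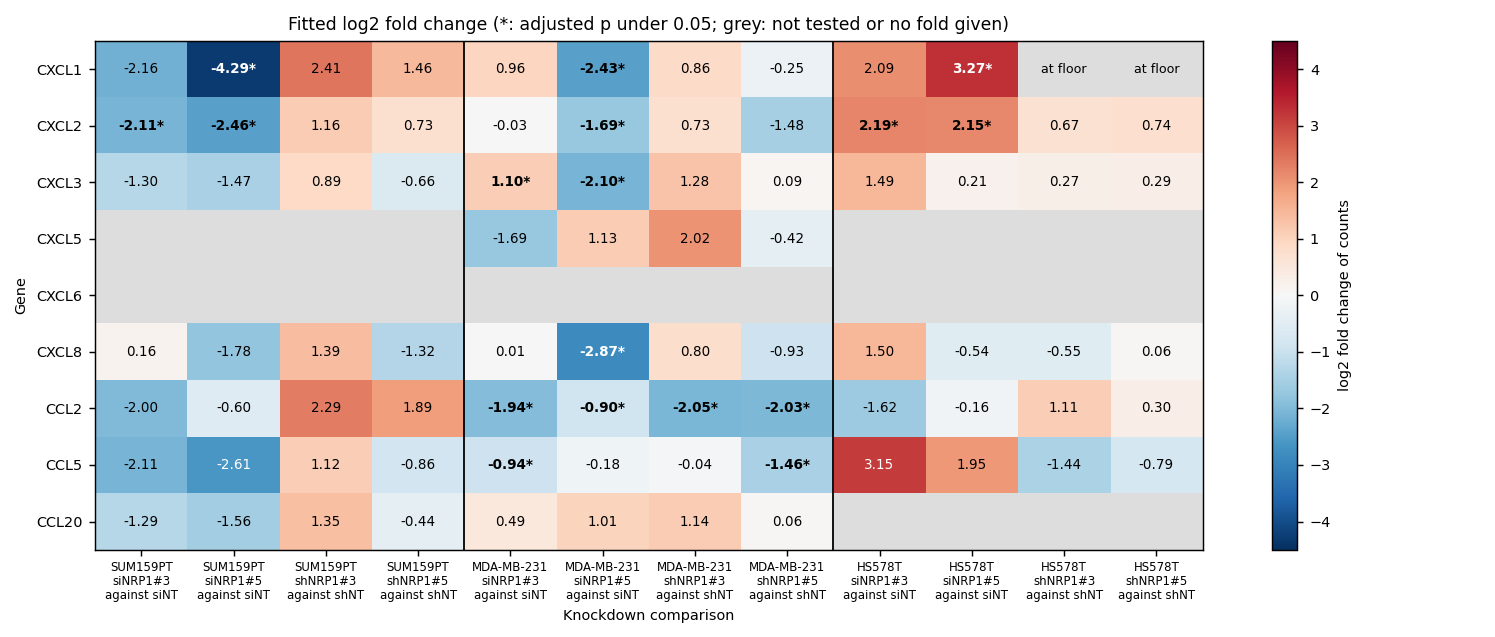
Fitted log2 fold change of counts for each chemokine (rows) in the 12 knockdown comparisons (columns), with a colour scale in log2 units. Asterisks mark adjusted p under 0.05 and grey marks genes that were not tested or, for CXCL1 in HS578T shRNA groups, were at or under 3 counts. CCL2 passed in all 4 MDA-MB-231 columns, and CXCL1, CXCL2, CXCL3 and CXCL8 passed together in the MDA-MB-231 siNRP1#5 column only.

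CCL2, the monocyte attractant, fell with all 4 NRP1-targeting reagents in MDA-MB-231. It had 11.8, 10.9 and 7.69 TPM in siNT, 2.18, 2.62 and 2.85 TPM in siNRP1#3 and 5.29, 3.64 and 4.84 TPM in siNRP1#5. Both knockdown groups lay wholly below the control, and siNRP1#3 lay below siNRP1#5. The log2 fold changes were -1.94 ± 0.33 (SE, adjusted p = 0.000264) and -0.90 ± 0.31 (SE, adjusted p = 0.0347). The second call was lost without replicate 1 or 2 of siNRP1#5 or of siNT (adjusted p = 0.0623 to 0.115), whereas the calls with the other 3 reagents were kept without any 1 library. In shNT it had 4.70, 3.97 and 6.11 TPM, against 1.54, 1.13 and 0.89 TPM in shNRP1#3 and 2.08, 0.67 and 0.54 TPM in shNRP1#5. The groups did not overlap and the log2 fold changes were -2.05 ± 0.35 (SE, adjusted p = 0.00222) and -2.03 ± 0.34 (SE, adjusted p = 0.000481). In SUM159PT the same gene went from 0.79, 0.95 and 0.95 TPM in siNT to 0.25, 0.13 and 0.37 TPM in siNRP1#3, with a log2 fold change of -2.00 ± 0.66 (SE, adjusted p = 0.0689) that missed the threshold. In the SUM159PT shRNA groups its log2 fold changes had the opposite sign, 2.29 ± 0.61 with shNRP1#3 and 1.89 ± 0.61 with shNRP1#5 (SE), and also missed it (adjusted p = 0.0790 and 0.0813). The responses of CCL2 to shNRP1#3 and to shNRP1#5 were not equal in the 3 lines (F tests, adjusted p = 0.00426 and 0.00545).

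The neutrophil chemokines of MDA-MB-231 separated the 2 siRNAs. With siNRP1#5, CXCL8 had 32.9, 8.34 and 33.9 TPM against 347, 135 and 146 TPM in siNT, without overlap, and fell by 2.87 ± 0.57 on the log2 scale (SE, adjusted p = 0.00185). CXCL1 had 7.82, 3.37 and 14.6 TPM against 78.5, 44.2 and 44.7 TPM and fell by 2.43 ± 0.58 (SE, adjusted p = 0.00641). CXCL3 had 2.81, 1.91 and 2.81 TPM against 20.8, 9.97 and 9.86 TPM and fell by 2.10 ± 0.37 (SE, adjusted p = 0.000316). CXCL2 followed with 16.7, 6.55 and 39.1 TPM against 119, 62.6 and 51.8 TPM, again without overlap, at -1.69 ± 0.56 (SE, adjusted p = 0.0362), a call lost without replicate 1 or 2 of either group (adjusted p = 0.0515 to 0.148). With siNRP1#3 none of these 4 fell: CXCL3 rose to 42.5, 23.4 and 23.9 TPM, a log2 fold change of 1.10 ± 0.34 (SE, adjusted p = 0.0238) that was lost without siNRP1#3 replicate 1 or siNT replicate 2 or 3 (adjusted p = 0.0922 to 0.172), and CXCL1, CXCL2 and CXCL8 had 0.96 ± 0.55, -0.03 ± 0.54 and 0.01 ± 0.52 (SE), none of which passed. CCL20 did not follow the neutrophil chemokines, with 4.55, 1.59 and 8.11 TPM in siNRP1#5 (1.01 ± 0.42, SE, adjusted p = 0.0816).

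CCL5 fell in MDA-MB-231 with siNRP1#3 (-0.94 ± 0.31, SE, adjusted p = 0.0312) and with shNRP1#5 (-1.46 ± 0.30, SE, adjusted p = 0.00219). Its levels were 0.67, 0.60 and 0.54 TPM in siNRP1#3 and 0.96, 0.39 and 0.36 TPM in shNRP1#5, below all samples of their controls (1.24 to 1.35 TPM in siNT and 1.59 to 1.90 TPM in shNT). The siNRP1#3 call was lost without replicate 2 or 3 of siNRP1#3 or replicate 1 or 2 of siNT (adjusted p = 0.0703 to 0.0967). With siNRP1#5 and shNRP1#3 the log2 fold changes were -0.18 ± 0.30 and -0.04 ± 0.28 (SE). In MDA-MB-231 as a whole, 3 of 8 members passed with siNRP1#3, where 25.7% of all genes passed, 5 of 8 with siNRP1#5 (29.4% of all genes), 1 of 8 with shNRP1#3 (3.65%) and 2 of 8 with shNRP1#5 (20.7%). The shares of members passing with siNRP1#3 and shNRP1#5 were thus near those of all genes.

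The direct test of siNRP1#5 against siNRP1#3 in MDA-MB-231 passed for 6 of 8 members, with 39% of all genes passing. NRP1 itself was lower in siNRP1#5 in this test (-4.18 ± 0.17, SE, adjusted p = 1.03e-11). Against siNT it changed by -4.88 with siNRP1#5 and -0.70 with siNRP1#3. Target sequence, NRP1 forms targeted and depth of knockdown differ together between the 2 siRNAs and cannot be told apart. CXCL1 was lower in siNRP1#5 by -3.38 ± 0.60, CXCL3 by -3.20 ± 0.37, CXCL8 by -2.88 ± 0.57 and CXCL2 by -1.66 ± 0.56 (log2, SE), while CCL2 was higher by 1.04 ± 0.33. CXCL5 was also higher, by 2.82 ± 0.86, on 13, 2 and 33 counts against 1, 3 and 3. Without siNRP1#3 replicate 1, 3 of these 6 calls were lost (CXCL2, CXCL5 and CCL2), that of CXCL2 was lost also without siNRP1#5 replicate 1 or 2, and that of CXCL5 without siNRP1#5 replicate 3. Between the shRNAs, 3 of 8 members were lower in shNRP1#5 than in shNRP1#3, where 14.2% of all genes passed: CXCL2 (-2.21 ± 0.64, adjusted p = 0.0356), CCL5 (-1.42 ± 0.30, adjusted p = 0.00464) and CXCL3 (-1.20 ± 0.39, adjusted p = 0.0499). CXCL8 and CXCL1 did not pass there. Replicate 1 of the shNRP1#3 libraries had the highest values (27.4, 13.9 and 43.4 TPM of CXCL1, CXCL2 and CXCL8), and without it CXCL2 and CXCL3 changed by -1.76 and -0.91, with adjusted p = 0.122 and 0.195. The CXCL3 call was lost whichever of these 6 libraries was left out and the CXCL2 call with 4 of them, while that of CCL5 was kept.

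In SUM159PT CXCL2 was lower with both siRNAs and CXCL1 with siNRP1#5. CXCL2 had 68.6, 190 and 41.7 TPM in siNT, 31.4, 26.2 and 25.5 TPM in siNRP1#3 and 20.8 and 10.9 TPM in siNRP1#5, so that all 5 knockdown samples lay below the control samples. It fell by 2.11 ± 0.63 with siNRP1#3 and by 2.46 ± 0.75 with siNRP1#5 on the log2 scale (SE, adjusted p = 0.0484 and 0.0328). CXCL1 had 1.86 and 0.52 TPM in siNRP1#5 against 5.76, 64.9 and 4.64 TPM in siNT, a log2 fold change of -4.29 ± 1.39 (SE, adjusted p = 0.0446). With siNRP1#3 it had 5.89, 7.92 and 6.80 TPM and did not pass (-2.16 ± 1.05, SE, adjusted p = 0.216). CXCL8 had 478, 386 and 574 TPM in siNRP1#3, within the range of the control, and 151 and 13.3 TPM in siNRP1#5. CCL5 had 20.6, 44.1 and 16.1 TPM and 18.03 and 11.3 TPM and missed the threshold (adjusted p = 0.0869 and 0.0515). In all, 1 of 7 members passed with siNRP1#3, where 8.66% of all genes passed, and 2 of 7 with siNRP1#5 (17.9%). The high siNT replicate 2 bears on these calls. Without it CXCL2 changed by -1.04 with siNRP1#3 and -1.40 with siNRP1#5 and CXCL1 by -1.71 with siNRP1#5, and none of the 7 members passed in either comparison (adjusted p = 0.293, 0.130 and 0.254 for these 3 values). The siNRP1#3 call of CXCL2 was lost also without any 1 of its knockdown libraries (adjusted p = 0.105 to 0.138), as were both siNRP1#5 calls without either of theirs (0.0502 to 0.202). With the replicate number as a block, which paired these samples, 2 of 7 members passed with siNRP1#3.

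With the shRNAs 0 of 7 members passed in SUM159PT with shNRP1#3, where 1.4% of all genes passed, and 0 of 7 with shNRP1#5 (5.94%). At an unadjusted p under 0.05 there were 2 and 1, and DESeq2 called 1 in each comparison. All 7 log2 fold changes with shNRP1#3 were above 0, from 0.89 to 2.41. With siNRP1#3, 6 of 7 were below 0, but only 4 without siNT replicate 2, and the difference between the reagents was not tested. CXCL1 was at 4.22, 14.9 and 1.75 TPM in shNRP1#3 against 0.76, 1.07 and 1.79 TPM in shNT, and CXCL8 at 118, 63.4 and 47.2 TPM against 18.9, 9.03 and 50.6 TPM, with overlap in both. None of the 7 members passed between siNRP1#5 and siNRP1#3 (29.7% of all genes passed, and 0 members at an unadjusted p under 0.05) or between shNRP1#5 and shNRP1#3 (8.71% of all genes, and 3 members at an unadjusted p under 0.05, all lower in shNRP1#5). By DESeq2, the number of members called in all 6 comparisons of sequence #5 with #3 over the 3 lines was 13, against 11 with edgeR.

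In HS578T CXCL2 was higher with both siRNAs and CXCL1 with siNRP1#5, at low levels. These libraries had estimated shares of MDA-MB-231 and SUM159PT RNA, which can overlap. CXCL2 had 0.72, 0.64 and 0.81 TPM in siNT, 4.26, 3.87 and 3.18 TPM in siNRP1#3 and 5.45, 3.56 and 0.96 TPM in siNRP1#5, all above the control. The log2 fold changes were 2.19 ± 0.58 (SE, adjusted p = 0.0402) and 2.15 ± 0.58 (SE, adjusted p = 0.0171). CXCL1 had 3.89, 1.79 and 0.77 TPM in siNRP1#5 against 0.09, 0.12 and 0.42 TPM, a log2 fold change of 3.27 ± 0.80 (SE, adjusted p = 0.0117). With siNRP1#3 it had 0.80, 0.63 and 1.79 TPM and did not pass (2.09 ± 0.79, SE, adjusted p = 0.154). Beside this stand the levels that the foreign RNA would carry. In the 3 siNRP1#5 libraries CXCL1 measured 3.26, 1.50 and 0.739 CPM, while the estimated share of MDA-MB-231 RNA would carry 6.84, 5.72 and 3.45 CPM at the level of MDA-MB-231 siNT and 1.15, 0.960 and 0.579 CPM at that of MDA-MB-231 siNRP1#5. For CXCL2 the measured 4.898, 2.63 and 0.739 CPM compare with 8.82, 7.38 and 4.45 CPM and with 2.46, 2.06 and 1.24 CPM. At the level of SUM159PT siNT the share of SUM159PT RNA would carry 0.622, 1.78 and 0.381 CPM of CXCL1 and 2.30, 6.57 and 1.41 CPM of CXCL2. In SUM159PT siNRP1#5 these genes had means of 1.19 and 15.8 TPM, against 25.1 and 99.97 TPM in siNT. The estimated shares in the 3 HS578T siNRP1#5 libraries were 17.1, 14.3 and 8.65% for MDA-MB-231 RNA and 2.85, 8.15 and 1.74% for SUM159PT RNA. A link between share and level was not tested. After subtraction at the level of the same reagent neither gene passed (2.69, adjusted p = 0.116 for CXCL1 and 1.09, adjusted p = 0.580 for CXCL2). After subtraction at the level of MDA-MB-231 siNT the log2 fold change of CXCL2 was -7.78, with no reads left for CXCL1 to be tested. No reads were subtracted in HS578T siNT, which measured 0.567, 0.591 and 0.696 CPM of CXCL2. Its own MDA-MB-231 share would carry 0.284, 0.368 and 0.725 CPM at that level, so the subtracted fold changes compare corrected with uncorrected groups.

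**Figure D4:**
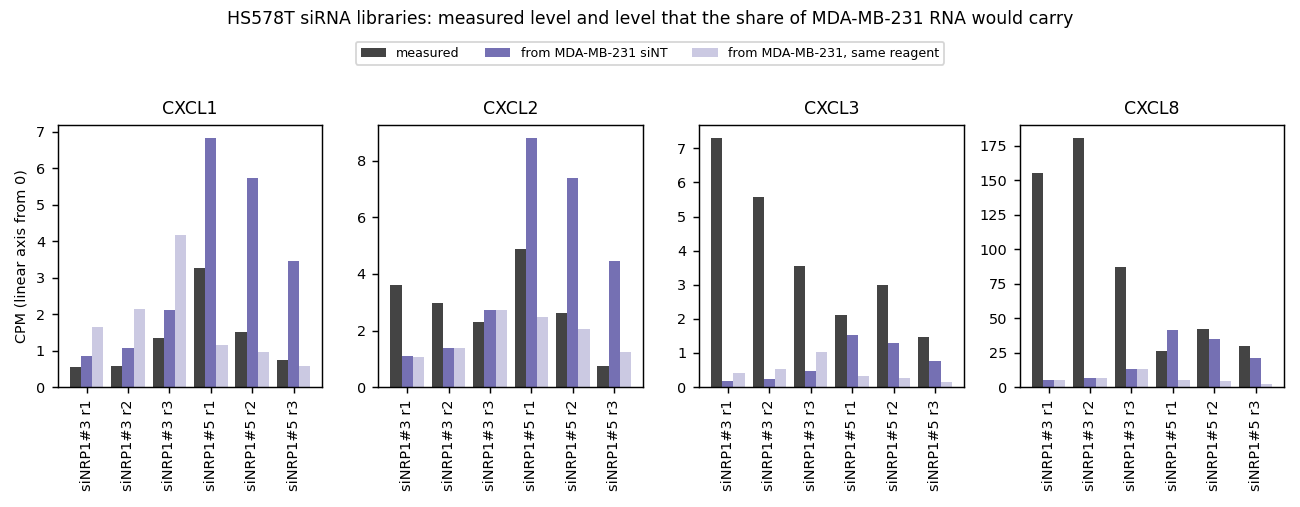
CPM on linear axes from 0 in the 6 HS578T siNRP1#3 and siNRP1#5 libraries (r1 to r3 are replicates). Dark bars are measured, and the other bars are what the estimated share of MDA-MB-231 RNA would carry at the level of MDA-MB-231 siNT or of the same reagent in MDA-MB-231. For CXCL1 the siNT-based bars exceed the measured bars in all 6 libraries, while for CXCL8 and CXCL3 in siNRP1#3 they are below them. RNA of SUM159PT is not drawn.

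CXCL8 and CXCL3 were at higher levels in HS578T siNRP1#3 than in siNT but missed the threshold. CXCL8 had 109, 134 and 66.7 TPM against 42.0, 39.7 and 22.7 TPM in siNT, without overlap (1.50 ± 0.47, SE, adjusted p = 0.0784), and it measured 155, 181 and 87.3 CPM, beside 56.9, 57.7 and 30.6 CPM in siNT. At the level of their siNT samples, MDA-MB-231 RNA would carry 5.08, 6.55 and 12.8 CPM and SUM159PT RNA 3.51, 4.32 and 6.57 CPM. CXCL3 had 10.8, 7.15 and 4.80 TPM against 2.22, 2.47 and 2.21 TPM (1.49 ± 0.43, SE, adjusted p = 0.0593). The other members that missed the threshold included CCL5 and CCL2. CCL5 had 2.14, 1.31 and 0.89 TPM against 0.07, 0.26 and 0.13 TPM (3.15 ± 1.03, SE, adjusted p = 0.0919). It measured 2.17, 1.09 and 0.808 CPM, and SUM159PT RNA at the level of SUM159PT siNT would carry 0.687, 0.844 and 1.29 CPM. The mean of CCL5 in SUM159PT was 101 TPM in siNT and 26.9 TPM in siNRP1#3. CCL2 had 1.00, 1.50 and 0.42 TPM against 2.07, 2.45 and 3.81 TPM (-1.62 ± 0.60, SE, adjusted p = 0.141). For CXCL2 in siNRP1#3, the measured 3.60, 2.97 and 2.30 CPM compare with 1.08, 1.40 and 2.74 CPM from MDA-MB-231 RNA at the level of siNT, and after subtraction its log2 fold change was 1.12 (adjusted p = 0.564). In all, 1 of 6 members passed with siNRP1#3, where 4.65% of all genes passed and all 6 members had an unadjusted p under 0.05, and 2 of 6 with siNRP1#5 (18.7% of all genes). DESeq2 called 4 members with siNRP1#3. The CXCL2 call with siNRP1#3 was lost whichever of the 6 libraries was left out (adjusted p = 0.0568 to 0.134). With siNRP1#5, without its replicate 1, which had the highest share of MDA-MB-231 RNA, CXCL1 and CXCL2 changed by 2.496 and 1.35 (adjusted p = 0.0543 and 0.108).

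Against siNRP1#3, siNRP1#5 had lower CXCL8 and CXCL3 in HS578T. The direction was that of the same comparison in MDA-MB-231. CXCL8 had 17.0, 31.7 and 21.1 TPM against 109, 134 and 66.7 TPM, a log2 difference of -2.05 ± 0.48 (SE, adjusted p = 0.00882), and CXCL3 2.51, 4.09 and 1.83 TPM against 10.8, 7.15 and 4.80 TPM, a difference of -1.28 ± 0.43 (SE, adjusted p = 0.0476). These were 2 of 6 members, with 18.1% of all genes passing, and the CXCL3 call was lost with 5 of the 6 libraries left out in turn (adjusted p = 0.0697 to 0.200). In the siNRP1#5 libraries CXCL8 measured 25.9, 42.2 and 29.7 CPM. Their share of MDA-MB-231 RNA would carry 41.3, 34.6 and 20.9 CPM at the level of MDA-MB-231 siNT. At the level of MDA-MB-231 siNRP1#5 it would carry 5.18, 4.34 and 2.62 CPM. The part of that RNA in these 2 differences was not tested. With the shRNAs 0 of 6 members passed in HS578T with shNRP1#3 (0.0356% of all genes), with shNRP1#5 (0.946%) or between the 2 (0.544%), and at an unadjusted p under 0.05 there were 0 as well. DESeq2 called 0 members in the first 2 of these comparisons. CCL2 was the member with the highest level among the CC chemokines there, with 13.0 and 6.08 TPM in shNRP1#3 and 8.21, 6.00 and 4.16 TPM in shNRP1#5 against 6.38, 3.68 and 2.81 TPM in shNT, which overlapped.

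Because siNRP1#5 and shNRP1#5 have the same sequence, their responses can be compared in 1 model. In MDA-MB-231 the responses of CXCL3 and CCL5 differed, 2 of 8 members, a share near the 23.7% of all genes that passed. CXCL3 fell with siNRP1#5 and had a log2 fold change of 0.09 ± 0.41 (SE) with shNRP1#5, a difference of -2.19 ± 0.55 (SE, adjusted p = 0.00761). CCL5 fell with shNRP1#5 and not with siNRP1#5, a difference of 1.28 ± 0.42 (SE, adjusted p = 0.0337). In SUM159PT 0 of 7 members passed (2.51% of all genes, and 3 members at an unadjusted p under 0.05) and in HS578T 0 of 6 (0.854% of all genes, and 0 members at an unadjusted p under 0.05). DESeq2 called 4 members over the 3 lines, against 2 here. NRP1 itself differed in this test in MDA-MB-231 (-3.83, adjusted p = 8.14e-09) and SUM159PT (-2.01, adjusted p = 0.0315), with the larger fall under siRNA.

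Tests of equal responses in the 3 lines passed for 2 of 8 members with siNRP1#3 (3.42% of all genes), 3 of 8 with siNRP1#5 (18.2%), 1 of 8 with shNRP1#3 (0.747%) and 1 of 8 with shNRP1#5 (3.81%). For siNRP1#5 these were CXCL1, CXCL2 and CCL5, and for siNRP1#3 CXCL2 and CCL5. In all 5 the fitted log2 fold change was above 0 in HS578T, and below 0 in the other lines. The HS578T libraries had estimated shares of MDA-MB-231 and SUM159PT RNA, which can count the same RNA. For CCL5, SUM159PT RNA at the level of SUM159PT siNT would carry 0.687 to 1.29 CPM in siNRP1#3 and 1.66 to 7.76 CPM in siNRP1#5. The gene measured 0.808 to 2.17 and 0.284 to 1.03 CPM there. In SUM159PT itself CCL5 had means of 101 TPM in siNT, 26.9 TPM in siNRP1#3 and 14.7 TPM in siNRP1#5. What SUM159PT RNA would carry at the lower level of those knockdown groups was not calculated. The part of foreign RNA in these 5 results was not tested. For both shRNAs the gene was CCL2.

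For the genes around these chemokines, tests were counted over lists of their receptors, of 35 other chemokines and of the factors that induce or degrade their transcripts, and are given beside 11.3% of tests on all genes in the knockdown comparisons and 17.6% between the controls. The receptors of the neutrophil chemokines were close to absent: CXCR1 had at most 3 counts and CXCR2 at most 7 in any sample, and CCR2, the receptor of CCL2, had at most 7. Of 23 receptor genes 7 to 9 could be tested, and 19 of 96 tests in the knockdown comparisons (19.8%) passed, 14 lower and 5 higher. CXCR4, the receptor of CXCL12, went from 1.28 ± 0.238 TPM in MDA-MB-231 siNT to 3.63 ± 1.73 TPM in siNRP1#5 (SD, n = 3), a log2 fold change of 1.74 ± 0.31 (SE, adjusted p = 0.000384), and fell with both shRNAs (-1.27 ± 0.29 and -0.98 ± 0.28). In HS578T siNRP1#5 it rose by 4.16 ± 0.81 to 0.58 ± 0.0964 TPM (SD, n = 3), in the libraries with MDA-MB-231 RNA. Among other chemokines 23 of 108 tests (21.3%) passed, 14 lower and 9 higher. CXCL16, the ligand of CXCR6, fell in SUM159PT and MDA-MB-231 with both #5 reagents, by 1.67 ± 0.38 and 2.32 ± 0.34 in SUM159PT and by 1.37 ± 0.20 and 1.11 ± 0.19 in MDA-MB-231 (log2, SE, siRNA first).

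Of the inducing cytokines and their receptors, 40 of 176 knockdown tests (22.7%) passed, 24 lower and 16 higher, and 22 of 44 (50%) between shNT and siNT, 21 lower and 1 higher. IL6, an NF-κB target like the chemokines, had 321 ± 50.1 TPM in MDA-MB-231 siNT and 75.1 ± 40.8 TPM in siNRP1#5 (SD, n = 3), a log2 fold change of -1.95 ± 0.42 (SE, adjusted p = 0.00302). In HS578T it went from 7.52 ± 1.82 TPM in siNT to 97.9 ± 70.2 TPM in siNRP1#3 (SD, n = 3), a log2 fold change of 3.55 ± 0.47 (SE, adjusted p = 0.000464). It also fell with siNRP1#5 in SUM159PT (-2.69 ± 0.88), where the siNT samples were spread from 303 to 1926 TPM. With siNRP1#5 in HS578T it rose (2.56 ± 0.45), to a mean of 42.9 TPM. Those libraries had estimated shares of MDA-MB-231 and SUM159PT RNA, and the HS578T siNRP1#3 libraries had smaller ones. In siNT of MDA-MB-231 and SUM159PT, IL6 had means of 321 and 995 TPM, and in their siNRP1#5 groups 75.1 and 130 TPM. The part of foreign RNA in either HS578T rise was not tested. IL6 was lower in shNT than in siNT in SUM159PT (-4.70 ± 0.82) and MDA-MB-231 (-3.97 ± 0.46). TNFRSF1B, a TNF receptor, passed in 5 of the 12 knockdown comparisons, with 3 lower and 2 higher. In MDA-MB-231 it fell with siNRP1#3 (-0.93 ± 0.20) and rose with siNRP1#5 (0.94 ± 0.20), the reverse of the order of CXCL3.

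The list of transcription factors and their inhibitors had 30 of 204 knockdown tests (14.7%) passing, near the share of all genes, with 23 lower and 7 higher, and 22 of 51 (43.1%) between the controls, all lower. RELA, the p65 subunit of NF-κB, fell in 5 comparisons, all with a #5 reagent: it fell by 1.38 ± 0.21 with shNRP1#5 in SUM159PT, by 1.02 ± 0.12 and 0.39 ± 0.12 with siNRP1#5 and shNRP1#5 in MDA-MB-231 and by 0.57 ± 0.18 and 0.88 ± 0.18 in HS578T (log2, SE). NFKBIA, the inhibitor that NF-κB itself induces, fell with siNRP1#5 in SUM159PT (-1.42 ± 0.38) and MDA-MB-231 (-0.57 ± 0.21). It also fell with shNRP1#5 in MDA-MB-231 (-0.75 ± 0.21). With siNRP1#5 in HS578T it rose (0.78 ± 0.23), from 18.1 ± 2.16 to 30.4 ± 3.71 TPM (SD, n = 3). Those libraries carried RNA of MDA-MB-231, where NFKBIA had 196 ± 11.6 TPM in siNT (SD, n = 3). The part of that RNA in the rise was not tested. Of the factors that bind or degrade AU-rich transcripts, 11 of 84 knockdown tests (13.1%) passed, also near that share, 6 lower and 5 higher. ZFP36L2, a decay factor, fell with siNRP1#3 in SUM159PT (-1.79 ± 0.23) and MDA-MB-231 (-0.93 ± 0.12) and with siNRP1#5 in SUM159PT (-0.85 ± 0.25).

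The other genes that the rule named from these lists moved in fewer or mixed directions. CCRL2, an atypical receptor that binds chemerin, passed in 4 knockdown comparisons with 3 lower and 1 higher, CCR10 in 3 with 2 lower and 1 higher, and CCR7 in 2, both lower. CCL28 and CCL26 passed in 4 each, with 2 higher and 2 lower, and CX3CL1 in 3 with 2 lower and 1 higher. IL11 passed in 4 with 3 higher and 1 lower, and IL1RAP, a subunit of the IL-1 receptor, fell in 4. NFKBIZ passed in 3 with 1 higher and 2 lower, and NFKBIB rose in 3. HNRNPD passed in 3 with 1 higher and 2 lower, ZFP36L1 in 2 with 1 in each direction and ZFP36 in 1, higher. In HS578T siNRP1#5, whose libraries carried MDA-MB-231 RNA, CCRL2 rose by 4.05 ± 0.56, CCL28 by 4.22 ± 0.85, CX3CL1 by 2.41 ± 0.68 and TNFRSF1B by 2.18 ± 0.49 (log2, SE), and the part of that RNA in these values was not tested. Between shNT and siNT, 5 of 24 receptor tests passed (20.8%, near the share of all genes, 3 higher and 2 lower), 10 of 27 of other chemokines (37%, 3 higher and 7 lower) and 9 of 21 of decay factors (42.9%, 3 higher and 6 lower).

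Across the 52 samples, after the mean of each cell line was subtracted, CXCL2 and CXCL3 followed each other most closely (Pearson r = 0.848 of log2 CPM), and CXCL8 followed CCL20 (0.761), CXCL3 (0.740) and CXCL1 (0.713). CCL2 followed none of them closely, with r = -0.05 to CXCL1, -0.12 to CXCL8 and 0.27 to CXCL2, and CCL5 had r = 0.45 to CXCL1. With the mean of each group subtracted instead, CCL2 had r = 0.40 to CXCL1, -0.01 to CXCL8 and 0.15 to CXCL2. These values are descriptions, since siRNA and shRNA samples form separate clusters, replicates share a group, and the paralogues can share reads. Among 14625 genes, those most like CXCL8 were CSF3 (0.863), IL6 (0.853) and NFKB2 (0.845), and those most like CXCL2 were CXCL3, CSF2 (0.843) and IL6 (0.814). CXCL1 was most like NFKBIA (0.889), EHF (0.842) and CTSS (0.839), and CXCL3 was most like CXCL2, CSF3 (0.743) and CXCL8. The values were lower for CCL2 (ZSWIM7, 0.691, SELPLG, 0.649, and DENND2B, 0.631) and CCL5 (MAP3K14-AS1, 0.674, OASL, 0.662, and S100A9, 0.641). CSF2 and CSF3 encode the growth factors of granulocytes and macrophages, and OASL is an interferon-induced gene.

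By the isoform percentages, 1 protein-coding transcript made up most of each gene in samples with at least 1 TPM of that gene, except for CXCL3 and CCL20. CXCL8-201 held a median of 86.5 to 88.9% of CXCL8 in the 3 lines, CXCL2-202 77.9 to 83.6% of CXCL2, CCL2-201 93.4 to 95.6% of CCL2 and CCL5-201 77.03 to 86.6% of CCL5. CXCL3 was divided more evenly, with 50.5 to 59.1% in CXCL3-201 and 29.5 to 32.0% in CXCL3-202, which has no defined coding sequence. For CCL20 the leading transcript was CCL20-201 in SUM159PT (58.0%) and CCL20-202 in MDA-MB-231 (47.5%), 2 protein-coding transcripts, with ranges between samples of 43.5 to 77.2% and 33.2 to 74.7%.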

How the data were processed

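Bulk mRNA was sequenced in 52 samples. The authors trimmed reads with Trim Galore 0.6.5, aligned them with STAR 2.7.2b to GRCh38 and quantified genes with RSEM 1.3.3, per the labels and the methods. The deposited expected counts are not scaled for depth and were rounded here. The deposited TPM, made by the authors in the same step, are scaled for gene length and library. The deposited isoform percent gives each transcript's share of its gene. Each column was assigned to a sample by its label, and 2 libraries removed by the authors as outliers were not analysed here. Replicates were compared by chi-square, whose lowest value per degree of freedom was 11.0, so none was a repeat.

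Tests used edgeR 4.0.16 in R 4.3.3 (filterByExpr, TMM, quasi-likelihood F test with robust estimation) on all genes, with 1 fit of 6 group means per cell line and 1 fit of 18 group means for comparisons between lines, Benjamini-Hochberg adjustment over all genes of a comparison and a threshold of 0.05. Log2 fold changes have SE from the F statistic. Alternatives were DESeq2 1.42.0, upper-quartile scaling, no filter on low counts, fits of 2 groups, the replicate number as a block, each sample left out, limma 3.58.1 on log2(TPM + 0.1) and subtraction of another line's reads. Subtraction with the same reagent as source was chosen after seeing the data. The edgeR step was tested on simulated data. The replicate numbers were taken as pairs where all 3 pairs of deviations had r over 0.1, which held in 4 of 12 knockdown comparisons (SUM159PT siNRP1#3 and shNRP1#3, MDA-MB-231 siNRP1#5 and HS578T shNRP1#5), with r from -0.21 to 0.61 over all pairs. Gene coordinates and transcript sequences came from GENCODE 44, an earlier release than that of the authors on the same build. Promoters came from RefSeq. Depth limits the low members: 3 counts were taken as the floor, which covers counting error only.

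Members, lists and tests were chosen with earlier results of these data known. The genes named are the 9 members, NRP1 as the check of the labels, for each other list up to 4 genes passing in the most knockdown comparisons, and for each member with a mean of at least 1 CPM the 3 genes with the highest correlation.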

Additional observations from a re-analysis of the deposited data

Results flagged for a closer look

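The responses to siNRP1#5 and shNRP1#5, which share 1 sequence, differed in MDA-MB-231 for CXCL3 by -2.19 and for CCL5 by 1.28 on the log2 scale (interaction term, edgeR adjusted p = 0.00761 and 0.0337). These were 2 of 8 members, near the 23.7% of all genes that passed. Equal responses in the 3 cell lines were tested with F tests over the 52 samples. For siNRP1#3 they differed for CXCL2 (adjusted p = 0.0155) and CCL5 (0.0173), and for siNRP1#5 for CXCL1 (0.00108), CXCL2 (0.00152) and CCL5 (0.0234). By estimate, the HS578T libraries of both siRNAs carried MDA-MB-231 RNA, at 2.11 to 5.32% in siNRP1#3 and 8.65 to 17.1% in siNRP1#5. For RNA of SUM159PT, the line with the highest CCL5, the estimates were 0.722 to 1.35% and 1.74 to 8.15%. The 2 shares can count the same RNA. At the level of SUM159PT siNT its RNA would carry 0.687 to 1.29 CPM of CCL5 in siNRP1#3 and 1.66 to 7.76 CPM in siNRP1#5, where 0.808 to 2.17 and 0.284 to 1.03 CPM were measured. CCL5 was lower in the SUM159PT knockdown groups, with means of 26.9 TPM in siNRP1#3 and 14.7 TPM in siNRP1#5 against 101 TPM in siNT. What would be carried at those levels was not calculated. The part of foreign RNA in these 5 results was not tested. For CCL2 the responses differed with shNRP1#3 (0.00426) and shNRP1#5 (0.00545), with log2 fold changes of -2.05 and -2.03 in MDA-MB-231, 2.29 and 1.89 in SUM159PT and 1.11 and 0.30 in HS578T.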

How the results depend on the processing

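Of 533 refits of 69 gene results that had passed, 430 stayed past the threshold with the same direction, 102 missed it and 1 was reversed: CXCL2 in HS578T siNRP1#5 had -7.78 after subtraction of MDA-MB-231 reads at the level of siNT (adjusted p = 0.0158), where that level exceeds the measured reads in all 3 libraries. Members called without the filter on low counts were 47 in the 12 knockdown comparisons against 17, 20 against 11 between sequences, 7 against 2 between siNRP1#5 and shNRP1#5 responses and 18 against 7 for equal responses, and the cause was not tested. By comparison, without the filter these were 5, 6, 5 and 4 in SUM159PT (siNRP1#3, siNRP1#5, shNRP1#3, shNRP1#5), 5 and 4 in MDA-MB-231 shNRP1#3 and shNRP1#5 and 6 in HS578T siNRP1#3. DESeq2 called 2, 1 and 1 in SUM159PT siNRP1#3, shNRP1#3 and shNRP1#5, 2 in MDA-MB-231 shNRP1#3, 4 in HS578T siNRP1#3 and 4 between responses. Fits of 2 groups gave 0 in SUM159PT siNRP1#5, 2 in MDA-MB-231 shNRP1#3 and 4 in HS578T siNRP1#3. Upper-quartile scaling gave 0 in SUM159PT siNRP1#3, and limma on log2 TPM gave 0 there, 2 in HS578T siNRP1#3 and 1 in HS578T siNRP1#5. Subtraction gave 0 in HS578T siNRP1#3 with either source and, with the same reagent as source, 0 in siNRP1#5. With the replicate number as a block, 21 knockdown tests passed, with 2 in each of SUM159PT siNRP1#3, MDA-MB-231 shNRP1#3 and HS578T siNRP1#3, and 5 between responses. The block lost CXCL3 in SUM159PT (1.01, adjusted p = 0.0976) and CCL5 in HS578T (-0.83, adjusted p = 0.259), each against MDA-MB-231, and no other call.

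Leaving out 1 library at a time, the members called in SUM159PT ranged from 0 to 2 with siNRP1#3, 0 to 3 with siNRP1#5, 0 to 1 with each shRNA and 1 to 5 in shNT against siNT. In MDA-MB-231 they ranged from 1 to 2 with siNRP1#3 and 3 to 5 with siNRP1#5, stayed at 1 with shNRP1#3 and 2 with shNRP1#5, and ranged from 6 to 7 in shNT against siNT. In HS578T they were 0 with siNRP1#3, 0 to 2 with siNRP1#5, 0 with both shRNAs and 0 to 1 in shNT against siNT. Between #5 and #3 they ranged from 0 to 2 (siRNA) and 0 to 0 (shRNA) in SUM159PT, 3 to 6 and 1 to 2 in MDA-MB-231 and 1 to 2 and 0 to 0 in HS578T. Where this left a group with 1 sample, that sample was assumed to vary like the other groups. Few counts limit CXCL5, CXCL6 and CCL20.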
